A study of Mus musculus with 10 samples.

Results

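The Gimap genes encode GTPases of immunity-associated proteins, and the 8 members listed by name (Gimap1, Gimap3, Gimap4, Gimap5, Gimap6, Gimap7, Gimap8 and Gimap9) were followed in RNA sequenced from mouse bone marrow hematopoietic stem cells (HSCs). They were chosen by gene symbol, and all 8 were found among the 33393 genes of the series. Cells sorted as Lin- Sca-1+ c-Kit+ CD34− Flt3− (CD34− HSCs) came from C57BL/6 mice aged 8 weeks. The control group was Reg1flox/flox, which carries a floxed allele of the gene for the RNase Regnase-1 (Zc3h12a) and no Cre. The other group was Vav1-iCre; Reg1flox/flox (Reg1Δ/Δ), which carries the same floxed allele and a Cre driven by vav promoter elements in blood cells. Each group had 5 libraries, 3 in a first set and 2 in a set titled LT-HSC. The comparison asks how the transcripts of these genes differed between libraries labelled Reg1Δ/Δ and controls.

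Gimap proteins share a GTP-binding domain of the AIG1 type, and many are anchored to intracellular membranes. They are best known in lymphocytes and their precursors, where loss of single members shortens the life of T or B cells. In the mouse the genes lie side by side, with some read forwards and others read backwards. On the GRCm38 build, the members spanned chr6:48647234-48770851, which is 123.6 kb. A total of 6 lay on the plus strand, and Gimap6 and Gimap3 lay on the minus strand.

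The sequences before the start sites of Gimap6, Gimap9 and Gimap4 are shown because Gimap6 had the highest level in controls, Gimap9 had the smallest fall, and Gimap4 held the most kinds of the motifs searched. Each is the 250 bases before the RefSeq start on GRCm38.p6, 5′ to 3′ on the strand of the gene, and capitals mark matches to a motif.
Gimap6, chr6:48708245-48708494, minus strand: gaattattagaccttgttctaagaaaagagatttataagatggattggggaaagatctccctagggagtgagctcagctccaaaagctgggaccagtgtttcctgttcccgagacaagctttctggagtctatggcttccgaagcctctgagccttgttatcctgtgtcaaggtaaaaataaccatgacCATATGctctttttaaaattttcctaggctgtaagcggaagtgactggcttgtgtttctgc
Gimap9, chr6:48675885-48676134, plus strand: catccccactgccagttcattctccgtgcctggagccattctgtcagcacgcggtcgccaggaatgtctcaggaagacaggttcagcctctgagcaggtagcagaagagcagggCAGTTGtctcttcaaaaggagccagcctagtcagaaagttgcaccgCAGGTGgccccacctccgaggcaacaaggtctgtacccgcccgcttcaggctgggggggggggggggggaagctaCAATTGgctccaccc
Gimap4, chr6:48684328-48684577, plus strand: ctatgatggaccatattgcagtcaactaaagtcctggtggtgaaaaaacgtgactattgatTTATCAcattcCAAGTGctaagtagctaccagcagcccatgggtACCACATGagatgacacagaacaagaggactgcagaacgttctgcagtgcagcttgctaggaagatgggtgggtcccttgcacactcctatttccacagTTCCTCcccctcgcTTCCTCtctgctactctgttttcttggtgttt

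Motifs were searched on both strands in windows of 300 bases, from 250 before to 50 after the start, and all 8 members had a window. An Ets motif in the form GAGGAA was found for Gimap1, Gimap4 and Gimap7, and 28.3% of all 32851 windows held this string. The same 3 members held a Runx motif (TGTGGT), found in 16.8% of all windows. An E-box (CANNTG) was found for 6 members, all except Gimap1 and Gimap3, and in 72.3% of all windows. In Gimap4 the Runx match overlaps an E-box match, and they appear as a single run of capitals. Gimap4 was the member with a Gata motif in the form TGATAA (9.05% of all windows). Gimap3 was the member with an Ikaros motif in the form TGGGAA (25.6% of all windows). None held the interferon element GAAANNGAA, found in 8.56% of all windows. A match is a run of letters and was not tested for binding. Each motif was searched only in the letters given, so a window without a match may hold another form of such a site. Of the forms searched, Gimap6, the most abundant member in controls, and Gimap9, with the smallest fall, held the same kind, an E-box. Most windows hold an E-box.

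Some facts on the libraries bear on every value that follows. Levels are in TPM, a length-adjusted share of all transcripts in a library. TPM sums to 1000000 in every library and keeps no trace of read numbers, so neither the depth of a library nor the counting error of a value can be stated. Fewer genes reached 1 TPM in the libraries labelled Reg1Δ/Δ, with 12006 to 12048 against 14276 to 14307 in the first-set controls, and 11256 and 11398 against 13366 and 13717 in the LT-HSC set. The part of this difference in the results was not tested. Zc3h12a, the deleted gene, was measured at 1.28 to 1.83 TPM in the first-set controls and 2.08 to 3.54 TPM in the libraries labelled VavKO. In the LT-HSC set it was 1.48 and 6.07 TPM in controls against 10.3 and 8.52 TPM. The gene went against the label (log2 fold change 0.83 ± 0.28 SE, limma, FDR = 0.0314, a call lost in 4 of 10 fits that left out 1 library), so libraries are called "labelled Reg1Δ/Δ" throughout and directions are by label. Whether the RNA counted for Zc3h12a included the deleted part was not tested.

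The sorted identity was checked against markers. Of 9 tested stem cell markers, 8 fell in the libraries labelled Reg1Δ/Δ, beside 37.9% of all tested genes, and 1 of the 8 (Fgd5) passed the filter on low values, described further on, only through the controls. They included Hlf, at 33.9 to 176 TPM in controls against 0.79 to 2.72 TPM, and Procr, which codes for the endothelial protein C receptor, at 19.8 to 37.3 TPM against 0.11 to 1.36 TPM. Hlf and Procr were thus low throughout the labelled group. The sum of the 10 stem cell markers was 885 to 980 TPM in the first-set controls against 195 to 571 TPM. In the LT-HSC set it was 365 and 548 TPM in controls against 207 and 183 TPM. Groups thus overlapped in this sum across the sets but not within either set. RNA of the genes for the positive gate markers was present in every library. Kit had 106 to 367 TPM in controls against 56.1 to 116 TPM, and Ly6a, the Sca-1 gene, 68.1 to 108 TPM against 50.9 to 449 TPM, above all controls in 4 of 5 labelled libraries. RNA of the negative gate markers was present too, with Cd34 at 51.9 to 236 TPM in controls against 9.54 to 19.8 TPM, and Flt3 at 11.0 to 33.9 TPM against 1.16 to 2.21 TPM. No lymphoid-primed population was sorted, so the Gimap values are those of the whole gate. In such bulk RNA, fewer cells of a type and less RNA per cell cannot be told apart.

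All 8 Gimap genes were lower in the libraries labelled Reg1Δ/Δ than in controls. Their summed level was 371, 438 and 408 TPM in the first-set controls and 356 and 454 TPM in the LT-HSC controls. It was 66.4, 55.2 and 46.8 TPM in the VavKO libraries and 37.4 and 34.6 TPM in the VavReg1_KO LT-HSC libraries. Controls and labelled libraries were thus far apart, and the labelled LT-HSC libraries were the lowest. Gene by gene, every labelled library lay below every control for 8 of 8 members, and this held for 20% of the 12874 tested genes.

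Tests were made with limma on log2(TPM + 1) with the library set as a covariate, over genes with at least 1 TPM in at least 5 of 10 libraries. FDR is the Benjamini-Hochberg adjusted p over all tested genes. All 8 members passed the filter, 8 were lower at FDR under 0.05 and 0 were higher, where 37.9% of all tested genes were lower and 15% were higher. These shares depend on the scaling: 2636 genes were lower and 3861 higher after quantile normalization, and 3425 and 3973 after median-of-ratios scaling, with 8 of 8 members lower under either. The fall was larger than 2 on the log2 scale for 7 of 8 members, and for 6.9% of all tested genes. This count was 4 after quantile normalization, and 6 in the first set alone. The median log2 fold change was −2.83 over the members and −0.25 over all tested genes. Gimap8 passed the filter only through the controls. Fold changes on this scale understate the change of members with few TPM.

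**Figure D1:**
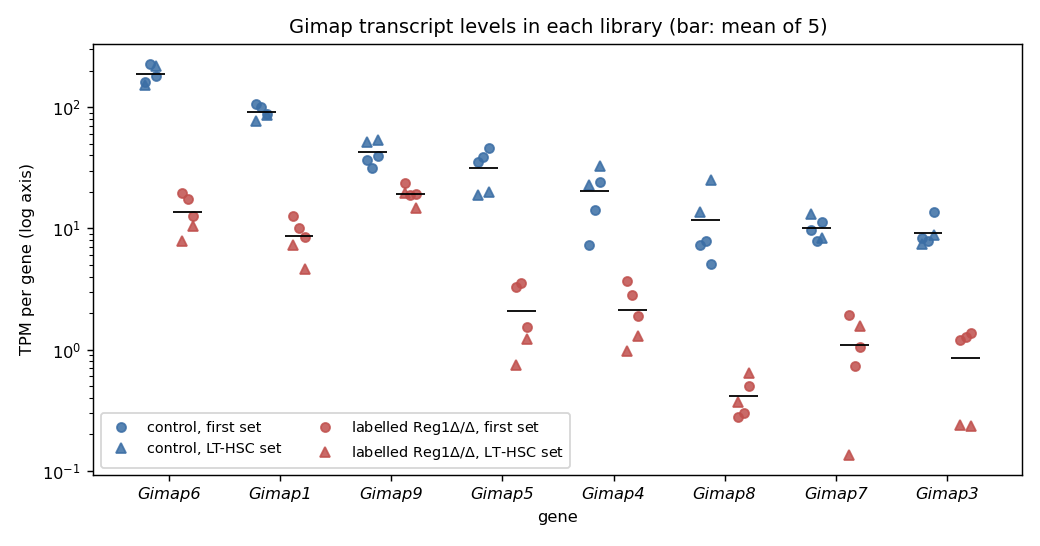
TPM of each Gimap gene (log axis) in the 10 libraries, with genes ordered by their control mean; blue points are controls, red points are libraries labelled Reg1Δ/Δ, circles are the first set, triangles the LT-HSC set, and bars the mean of 5. Red points lie below blue points for every gene, and the gap is narrowest for Gimap9, with a lowest control of 31.6 TPM and a highest labelled library of 23.9 TPM.

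Gimap6, a member linked to autophagy in lymphocytes, was the most abundant. It was measured at 160, 229 and 181 TPM in the first-set controls and 153 and 219 TPM in the LT-HSC controls. The labelled libraries had 19.6, 17.4 and 12.8 TPM in the first set and 7.91 and 10.4 TPM in the LT-HSC set. The groups were far apart in either set. The log2 fold change was −3.74 ± 0.20 (SE, FDR = 8.31e-07), the largest fall of the family on this scale, from a mean of 188 ± 34.3 TPM (SD, n = 5) to 13.6 ± 4.83 TPM (SD, n = 5). With a pseudocount of 0.1 the falls of Gimap8 (−4.33) and Gimap5 (−4.00) were larger than that of Gimap6 (−3.84), and in the first set alone Gimap5 (−3.47) stood beside Gimap6 (−3.45).

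Gimap1, which mature T and B cells need to survive, was next in level. Its controls had 106, 101 and 87.6 TPM in the first set and 76.5 and 86.9 TPM in the LT-HSC set. The labelled libraries had 12.6, 10.2 and 8.44 TPM, and 7.35 and 4.61 TPM. Controls varied little, and the fold change was −3.32 ± 0.16 on the log2 scale (SE, limma FDR = 5.06e-07).

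Gimap5, whose loss in rodents causes a severe shortage of lymphocytes, stood at 35.6, 38.7 and 45.8 TPM in the first-set controls and at 18.9 and 19.9 TPM in the LT-HSC controls. The labelled libraries had 3.29, 3.55 and 1.54 TPM in the first set, and 0.75 and 1.23 TPM in the LT-HSC set. The LT-HSC controls were lower than the first-set controls, and so were the labelled libraries of that set. The log2 fold change of −3.43 ± 0.17 (SE, limma FDR = 5.78e-07) was the second largest fall in the main fit. In the LT-HSC set alone Gimap5 (−3.37) fell less than Gimap6 (−4.19), Gimap4 (−3.73), Gimap8 (−3.70) and Gimap1 (−3.59). After quantile normalization it fell less than Gimap1 (−2.78 against −3.03).

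Gimap3 is the nearest relative of Gimap5 in the mouse. It had 8.40, 7.81 and 13.5 TPM in the first-set controls, and 7.38 and 8.81 TPM in the LT-HSC controls. In labelled libraries the levels were 1.19, 1.27 and 1.36 TPM in the first set and 0.24 and 0.23 TPM in the LT-HSC set. The labelled LT-HSC libraries were the lowest, and the log2 fold change was −2.49 ± 0.18 (SE, limma FDR = 3.46e-06). The transcripts of Gimap3 and Gimap5 share sequence. Of the distinct 31-base words of Gimap3, 13.2% also occur in Gimap5 (8.02% of those of Gimap5), and 3.32% of its 75-base words do. No other pair of members shared a word of either length, so among the members a split of reads between paralogs could touch Gimap3 and Gimap5.

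Gimap4, a regulator of T cell death, varied most among first-set controls relative to its mean. It had 7.34, 14.1 and 24.3 TPM there and 22.7 and 32.6 TPM in the LT-HSC controls. Labelled libraries had 3.69, 2.80 and 1.91 TPM in the first set, and 0.98 and 1.29 TPM in the LT-HSC set. Control 1 was the lowest control but was above every labelled library. The log2 fold change was −2.68 ± 0.39 (SE, limma FDR = 0.000336).

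Gimap7 had 9.79, 7.85 and 11.3 TPM in the first-set controls and 13.1 and 8.26 TPM in the LT-HSC controls. The labelled libraries had 1.94, 0.74 and 1.05 TPM, and 0.13 and 1.56 TPM. The labelled LT-HSC libraries thus differed from each other nearly as much as the labelled libraries as a whole. The log2 fold change was −2.46 ± 0.26 (SE, limma FDR = 3.96e-05), and with the LT-HSC set alone it was −2.74 with FDR = 0.0756.

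Gimap8, a long member with repeated GTP-binding domains, had 7.23, 7.81 and 5.12 TPM in the first-set controls and 13.5 and 24.9 TPM in the LT-HSC controls. In the labelled libraries it had 0.28, 0.30 and 0.50 TPM, and 0.37 and 0.64 TPM. No labelled library reached 1 TPM, while LT-HSC controls were above first-set controls. The log2 fold change was −2.97 ± 0.26 (SE, limma FDR = 1.23e-05). In TPM, the control mean was 28.1 times the labelled mean, the highest ratio of the family.

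Gimap9 fell least. It had 36.9, 31.6 and 39.5 TPM in the first-set controls and 51.3 and 53.9 TPM in the LT-HSC controls. Labelled libraries had 23.9, 19.0 and 19.3 TPM in the first set, and 19.7 and 14.6 TPM in the LT-HSC set. The groups did not overlap, and the log2 fold change was −1.09 ± 0.18 (SE, limma FDR = 0.000596). The control mean was 2.21 times the labelled mean, against ratios of 9.28 to 28.1 for the other members.

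The difference between members was itself examined, as the difference of their log2 fold changes within the same libraries. Over 28 pairs, with 95% intervals not adjusted for the number of pairs, Gimap9 differed from each of the other 7 members. The interval for Gimap6 minus Gimap9 was −3.16 to −2.14 around −2.65, and that for Gimap7 minus Gimap9 was −2.09 to −0.64 around −1.37. Gimap6, Gimap5 and Gimap1 could not be told from each other: Gimap5 minus Gimap6 was 0.31 (−0.19 to 0.82), Gimap1 minus Gimap6 was 0.43 (−0.06 to 0.91), and Gimap1 minus Gimap5 was 0.11 (−0.46 to 0.69). The intervals of Gimap8 and of Gimap4 against Gimap1 and Gimap5 held 0 as well.

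The order of levels also differed between groups. In controls the order by mean was Gimap6 (188 TPM), Gimap1 (91.6 TPM), Gimap9 (42.6 TPM), Gimap5 (31.8 TPM), Gimap4 (20.2 TPM), Gimap8 (11.7 TPM), Gimap7 (10.05 TPM) and Gimap3 (9.18 TPM). The control libraries of Gimap6, Gimap1 and Gimap9 did not overlap each other, whereas from Gimap9 downward each neighbour in the order overlapped the next. The order differed by set: Gimap5 (40.02 TPM) was above Gimap9 (36.0 TPM) in the first-set controls, and Gimap4 (27.6 TPM) above Gimap5 (19.4 TPM) in the LT-HSC controls. In labelled libraries Gimap9 came first (19.3 TPM), before Gimap6 (13.6 TPM) and Gimap1 (8.63 TPM). The remaining 5 members had means of 0.42 to 2.13 TPM.

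The make-up of the Gimap transcript pool changed with it. Gimap6 made up 42.9 to 52.3% of the summed TPM of the family in the 5 controls, and 21.1 to 31.5% in the labelled libraries. Gimap9 made up 7.23 to 14.4% in controls, and 34.4 to 52.6% in labelled libraries, where it was the largest share in all 5. Gimap1 moved less, from 19.1 to 28.5% in controls to 13.3 to 19.7%.

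**Figure D2:**
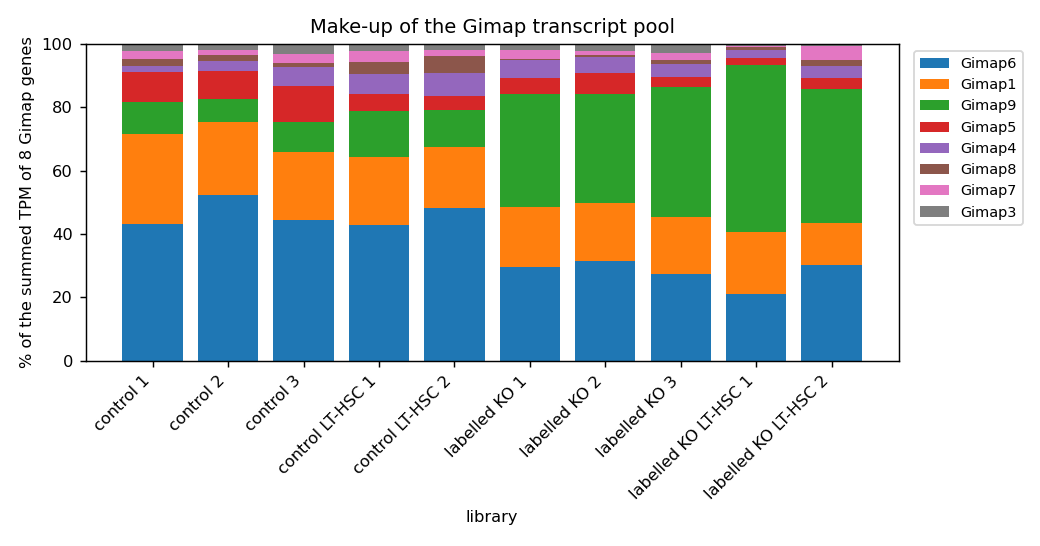
Share of each Gimap gene in the summed TPM of the 8 genes (percent), 1 stacked bar for each library; labelled KO stands for libraries labelled Reg1Δ/Δ. Gimap6 (blue) is the largest share in the 5 controls and Gimap9 (green) the largest in the 5 labelled libraries, with 34.4 to 52.6%.

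The fall was seen in either set, with sizes that differed in value. In the first set, labelled means were 5.36% (Gimap8) to 57.5% (Gimap9) of control means, and in the LT-HSC set 2.62% (Gimap8) to 32.6% (Gimap9). For Gimap4 the labelled mean was 18.3% of the control mean in the first set and 4.11% in the LT-HSC set. A limma interaction of group and set passed FDR under 0.05 for 0 of 8 members, where 0.443% of all tested genes passed. At an unadjusted p under 0.05 it was 3 members (Gimap4, Gimap8 and Gimap9, smallest FDR = 0.244), and 1603 of the 12874 genes. A difference between the sets was therefore not shown for any member.

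The files held 30 transcripts of the members. Of these 14 passed the filter, 1 of them (ENSMUST00000078223.5 of Gimap8) only through the controls, and 16 were not tested. All 14 were lower in limma per transcript, where 4761 of 31937 tested transcripts were lower and 2044 higher. Gimap6 came almost wholly from ENSMUST00000053661.6, with 95.9% of the TPM of the gene in controls and 96.6% in labelled libraries. The main transcript of Gimap1, ENSMUST00000054368.6, held 64.3% in controls and 67.4% in labelled libraries. The main transcript of Gimap9, ENSMUST00000054050.4, held 77.4% and 73.3%. ENSMUST00000147936.1, the shorter transcript of Gimap9, fell from 9.64 to 5.14 TPM (log2 fold change −0.88 ± 0.23 SE, limma FDR = 0.0236), so the smaller fall of Gimap9 was shared by its 2 transcripts. The leading transcript of Gimap8 varied among controls. In the LT-HSC controls ENSMUST00000203083.2 led with a mean of 13.9 TPM, against 5.04 TPM for ENSMUST00000078223.5, while in the first-set controls it had 2.37 TPM against 3.14 TPM and led in control 1 only. ENSMUST00000203083.2 did not pass the filter and was not tested.

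Other genes lie between the members. Gm28053 is a read-through gene model in which 432 of 989 exon bases are shared with Gimap7, Gimap1os, Gimap1 and Gimap5. It had 62.4, 69.3 and 67.4 TPM in the first-set controls and 113 and 153 TPM in the LT-HSC controls, against 7.81 to 11.8 TPM in labelled libraries (log2 fold change −2.99 ± 0.18 SE, limma FDR = 1.53e-06). Reads in the shared bases cannot be assigned to one of these genes with certainty.

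Gimap1os is annotated antisense to Gimap1, with 1107 shared exon bases. It fell from a mean of 8.81 TPM to 0.46 TPM (log2 fold change −2.68 ± 0.24 SE), and since no strand setting was stated, reads of the 2 genes in the shared bases cannot be told apart. The overlapping lincRNAs Gm44226 and 4833403J16Rik share 649 exon bases with each other. They fell by 2.53 ± 0.24 and 2.15 ± 0.29 on the log2 scale (SE). Like Gimap1os, they passed the filter only through the controls, with no labelled library at 1 TPM. Each of these 4 genes was lower in every labelled library than in any control, beside 20% of all tested genes.

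Outside the cluster, the flanks differed in size of change. On the side of Gimap3, Tmem176b and Tmem176a, paired membrane protein genes of myeloid and dendritic cells, fell from 267 to 29.6 TPM and from 198 to 17.03 TPM. Their log2 fold changes of −3.24 ± 0.19 and −3.49 ± 0.18 (SE) were in the range of the members. On the side of Gimap8, AI854703 and Zfp775, the genes nearest to the cluster, differed by −0.60 ± 0.15 and −0.42 ± 0.13 on the log2 scale, and Repin1, a zinc finger gene, by −1.11 ± 0.16. After quantile normalization the change of Zfp775 was 0.46 (limma FDR = 0.0064, called higher) and that of AI854703 0.24 (FDR = 0.3, not called). Their direction thus depends on the scaling. Zfp775 also lost its call with no covariate (FDR = 0.0801), median-of-ratios scaling (FDR = 0.281), the LT-HSC set alone (FDR = 0.805) and any first-set library left out (highest FDR = 0.0604). AI854703 lost it with no covariate (FDR = 0.157), median-of-ratios scaling (FDR = 0.124) and the LT-HSC set alone (FDR = 0.164), and Repin1 with the LT-HSC set alone (FDR = 0.0756). Gm45021 and Gm44965, which share exon bases with Zfp775, were at 0 in 1 LT-HSC control each and changed by −2.17 ± 0.59 and −1.60 ± 0.40 (SE). Gm45021 lost its call with a pseudocount of 0.1 (FDR = 0.0773) and in the LT-HSC set alone (FDR = 0.606), and changed by −2.85 without LT-HSC control 2. Gm44965 lost its call with no covariate (FDR = 0.11) and in the LT-HSC set alone (FDR = 0.478). Aoc1, at no more than 0.102 TPM in any library, did not pass the filter.

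**Figure D3:**
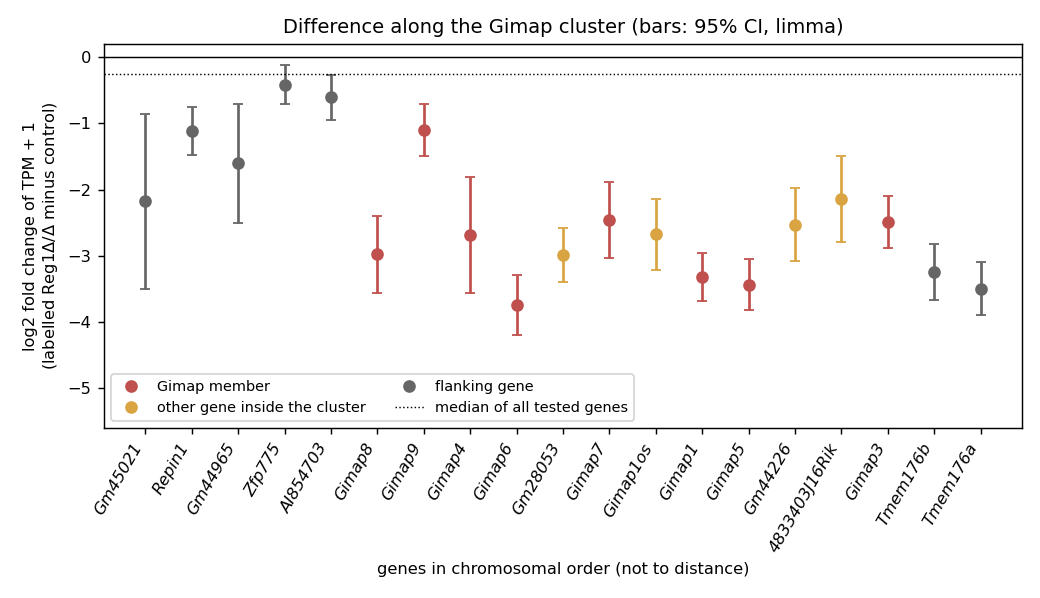
Log2 fold change of TPM + 1 (labelled Reg1Δ/Δ minus control) with its 95% interval from limma, for the tested genes in and around the cluster, in chromosomal order and not to distance. Members are red, other genes inside the cluster yellow and flanking genes grey; Gimap9 at −1.09 stands above the other members, and Tmem176b and Tmem176a at −3.24 and −3.49 lie among them.

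Lymphoid genes beyond the family were read from a list on lymphoid priming. Of its 27 genes 23 were tested, and 20 were lower, 1 was higher and 2 were not called, beside 37.9% lower and 15% higher of all tested genes. The median log2 fold change was −3.39. The gene that rose was Ikzf1, the transcription factor Ikaros, by 0.92 ± 0.23 (SE), and the genes not called were Tcf3 (0.02) and Bcl11a (0.15). The call of Ikzf1 was lost with no covariate and with the LT-HSC set alone. The largest falls were those of early B-lineage genes. Igll1, a surrogate light chain gene, was at 36.5 to 330 TPM in controls and at most 5.36 TPM in labelled libraries. Its partner Vpreb1 was at 24.7 to 298 TPM against at most 4.40 TPM, and the B cell receptor gene Cd79a at 15.7 to 195 TPM against at most 1.74 TPM. Dntt, which codes for terminal transferase, was at 37.2 to 365 TPM against at most 3.62 TPM. Their log2 fold changes were −6.81, −6.26, −6.12 and −6.10. Without control 1, those of Igll1, Vpreb1 and Cd79a were −7.47, −6.94 and −6.72.

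A second list held lymphocyte survival genes, to which Gimap5 is often linked. Of 20 genes 19 were tested, with 13 lower, 1 higher and 5 not called, and a median of −0.87, beside 37.9% lower and 15% higher of all tested genes. In each of the lists, 2 genes passed the filter only through the controls. Large falls were those of Il7r, the receptor of interleukin 7 (17.96 to 0.33 TPM, −3.75 ± 0.36) and of Bcl2, an inhibitor of cell death (15.0 to 1.66 TPM, −2.61 ± 0.18). Klf2, a transcription factor of quiescent T cells, had 1.08 to 12.4 TPM in controls and no more than 0.15 TPM in labelled libraries (−2.13 ± 0.42, all SE), so it passed the filter only through the controls. The gene that rose was Bax, which promotes cell death, by 0.56 ± 0.10 (SE), a call lost with no covariate and with the LT-HSC set alone.

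The genes most like the family were ranked by Pearson correlation with the mean of the scaled members over 10 libraries, centred within sets, among 8898 genes with a mean of at least 5 TPM. The points share the group difference, so a high value describes it as much as anything else. Gm28053, which shares exons with members, came first with r = 0.998. Tcf7, a transcription factor of T cell precursors, followed with r = 0.995. It had 39.9, 24.8 and 44.5 TPM in the first-set controls and 94.5 and 113 TPM in the LT-HSC controls, against 1.61 to 2.94 TPM in labelled libraries. Dbp, Pold4, Plod1, Ppp1r18, Trp53i11 and Nfkbie came next, with r of 0.992 to 0.993. Between members, r ranged from 0.90 (Gimap7 and Gimap9) to 0.99 (Gimap1 and Gimap6) over the 28 pairs.

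Markers of other cells moved with the Gimap genes, and their part in the fall was not tested. The counts of lower markers stand beside 37.9% of all tested genes, and they include markers that passed the filter only through the controls: 3 of B cells, and 1 each of T cells, NK cells, granulocytes and monocytes, and endothelial cells. Of 8 B cell markers 7 were tested and 7 were lower, with a sum of 75.4 TPM in control 1, 353 to 418 TPM in the other 4 controls and 2.80 to 8.50 TPM in labelled libraries. The Gimap total was 371 TPM in control 1 and 356 to 454 TPM in the other controls. Of 12 T cell markers 5 were tested and 5 were lower, with a sum of 151 to 271 TPM in controls against 12.7 to 25.8 TPM. In controls most of this sum was Trbc1 (104 to 195 TPM), a T cell receptor constant gene, and its neighbour Trbc2 was at 20.0 to 46.3 TPM in controls. The adaptor gene Lat was at 12.7 to 26.9 TPM in controls and Cd4 at 2.58 to 8.29 TPM. The CD3 chain genes Cd3e, Cd3d and Cd3g had at most 2.90 TPM in any library, and Cd8a at most 0.51 TPM.

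Sums of other markers fell as well. Those of granulocytes and monocytes were 2713 to 11393 TPM in controls against 266 to 873 TPM, with 6 of 8 tested markers lower. Those of endothelial cells were 58.3 to 122 TPM against 6.54 to 15.2 TPM (4 of 4 tested markers lower), and those of megakaryocytes 88.9 to 449 TPM against 18.1 to 96.9 TPM (3 of 3 lower). The NK cell sum was 88.1 to 278 TPM against 36.7 to 145 TPM, most of it Nkg7, with 2 of 2 tested markers lower. Of 6 erythroid markers 2 were lower, the globin genes Hba-a1 and Hbb-bs, and 3 were higher, Klf1, Epor and Ermap. No markers were at 0 in every control, and among labelled libraries Cdh5 alone was at 0 in each.

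**Figure D4:**
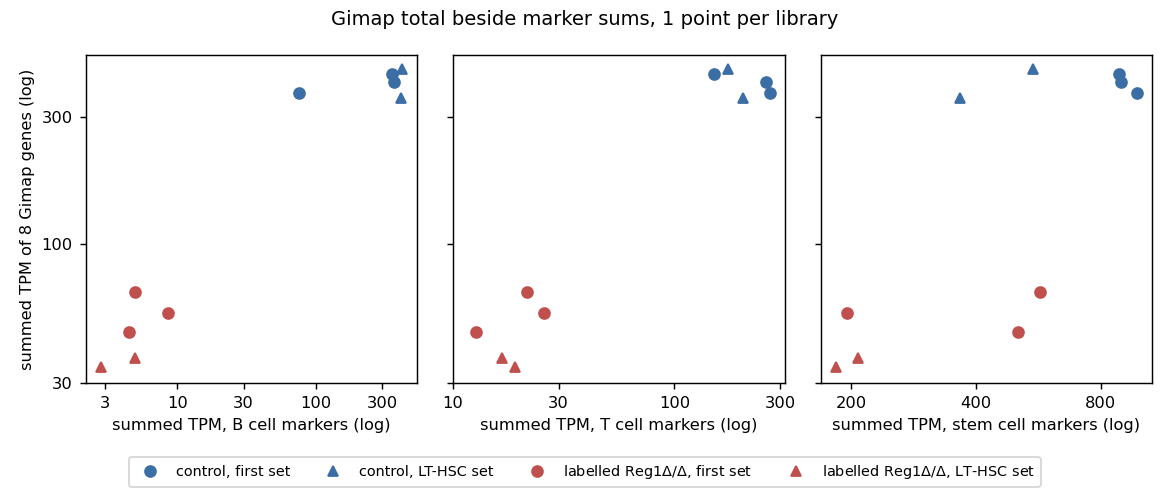
Summed TPM of the 8 Gimap genes (log axis) against the summed TPM of B cell, T cell and stem cell markers (log axes), 1 point per library, blue for controls and red for libraries labelled Reg1Δ/Δ. Controls sit at 356 to 454 TPM of Gimap RNA and labelled libraries at 34.6 to 66.4 TPM; control 1 is the blue point at 75.4 TPM of B cell markers.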

How the data were processed

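The authors sequenced 10 libraries (HiSeq2500, paired-end reads), aligned them with STAR and estimated TPM per transcript with Salmon 0.9.1 and GENCODE M17 on GRCm38. They deposited log2(TPM + 1), on the log2 scale, for 95912 transcripts per library. The version of the cDNA kit differs between labels and methods. Neither states a strand setting. The header of 1 file (LT-HSC, labelled Reg1Δ/Δ, replicate 2) carries the name of replicate 1; its values differ and it was used as replicate 2. Sets were taken from the sample titles.

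The log2 values were turned back into TPM and summed over the transcripts of a gene. Depth is not known from TPM. Protein-coding transcripts held 46.2 to 49.1% of TPM in the first set and 73.5 to 81.1% in the LT-HSC set. Genes with TPM of at least 1 in at least 5 libraries (12874) entered limma (version 3.58.1, R 4.3.3) on log2(TPM + 1), pseudocount 1, with the set as a covariate, two-sided, FDR under 0.05. The test was run on simulated data first. Coordinates, exon overlaps and shared words came from GENCODE M21 on GRCm38, and cluster genes carry its symbols. Promoter windows are from RefSeq. Tables and plots used Python 3.11.15.

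Genes named were all members, their neighbours in the cluster and up to 5 protein-coding genes on each side, the 4 largest changes of each list, the 8 genes most like the family, Zc3h12a, and the markers used; 1 gene that this rule names is not reported here. Ikzf1, Tcf3, Bcl11a and Bax fall outside this rule and were chosen after their values were seen. The 2 genes farthest on the side of Tmem176a, and the pseudogene Gm44262 inside the cluster, had no values among the genes of the series. The members and lists were chosen with earlier results of these data known. The methods do not state how many mice gave each library. Alternatives were another pseudocount, 2 other filters, no covariate, each set alone, quantile and median-of-ratios scaling, protein-coding transcripts only, TPM rescaled to them, a trend in eBayes, a replicate block, and each library left out.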

Additional observations from a re-analysis of the deposited data

Results flagged for a closer look

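In groups of 5 libraries, 70 groups (controls or labelled libraries of the genes named) were searched for a library far from the rest, by the gap to its nearest neighbour as a share of the range. About 1 in 20 groups drawn from a single normal population passes this by chance. Each group here joins libraries of 2 sets, so that rate need not hold. Among the members it was Gimap3 alone, with control 3 at 13.5 TPM. For Zc3h12a it was LT-HSC control 2 at 6.07 TPM.

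Control 1 stood below the other controls for the B-lineage genes Igll1 (36.5 TPM), Vpreb1 (24.7 TPM) and Cd79a (15.7 TPM). VavKO 2 stood above the other labelled libraries for Igll1 (5.36 TPM), Cd79a (1.74 TPM) and Il7r (1.15 TPM). Among controls, Zfp775 was lowest in LT-HSC control 1 (2.79 TPM). Gm45021 was at 0 TPM in LT-HSC control 2 and in VavReg1_KO LT-HSC 2.

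The limma interaction of group and set passed the threshold for 4833403J16Rik, a lincRNA inside the cluster that passed the filter only through the controls. It was −1.70 ± 0.21 on the log2 scale (SE, LT-HSC minus first set, FDR = 0.0196). Its controls had 1.83 to 2.67 TPM in the first set and 11.4 and 11.8 TPM in the LT-HSC set, while labelled libraries had 0.15 to 0.49 TPM. On the log2(TPM + 1) scale labelled values this low hardly differ, so the interaction mainly follows the level of the controls.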

How the results depend on the processing

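All 8 Gimap genes were lower under every alternative except with the LT-HSC set alone, where 7 were and Gimap7 missed the threshold (−2.74, FDR = 0.0756). Over 23 settings, main one included, log2 fold changes ranged from −4.19 to −3.40 for Gimap6 and from −1.58 to −0.75 for Gimap9. They moved more for Gimap8 (−4.33 to −2.30), Gimap4 (−3.73 to −1.98), Gimap3 (−3.54 to −1.64), Gimap7 (−3.40 to −1.70) and Gimap5 (−4.00 to −2.78), while Gimap1 ranged from −3.59 to −2.98. With no covariate, 3052 genes were lower and 716 higher; with the LT-HSC set alone, 1581 and 452. Quantile normalization gave 2636 lower and 3861 higher, and median-of-ratios scaling 3425 lower and 3973 higher, against 4880 and 1933. The median of all genes moved from −0.25 to 0.14 and 0.050 under these scalings, and Zfp775 (0.46) and AI854703 (0.24) turned under the first. The cause was not tested. The count of higher genes was 0 in either list with no covariate or the LT-HSC set alone. It was 3 in the priming list under median-of-ratios scaling, and 2 in the survival list under either scaling or with a filter of 2 libraries. The rise of Zc3h12a was larger after quantile normalization (1.73, limma FDR = 0.00017) and median-of-ratios scaling (1.08, FDR = 0.0063). Zc3h12a lost its call with no filter or no covariate (0.83 each, FDR = 0.0897 and 0.214), with the first set (0.52, FDR = 0.0527) or the LT-HSC set alone (1.30, FDR = 0.265), and in 4 of 10 fits without a library (0.53 to 0.99 over the 10), without control 2, VavKO 1, or either labelled LT-HSC library.

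Whether replicate numbers pair the libraries was not settled. In the first set, correlations of the deviations were 0.03, 0.18 and 0.07 for same-numbered libraries and −0.12 to 0.06 for the others. In the LT-HSC set they were −0.05 and 0.05. With 2 libraries a group these are mirror images by construction and cannot show pairing. With the replicate block, 4545 genes were lower and 1703 higher, 8 of 8 Gimap genes were lower, and Zc3h12a (0.83, FDR = 0.0505) and Zfp775 (FDR = 0.0666) missed the threshold. TPM holds no depth, so levels near 0, such as Gimap8 in labelled libraries, have unknown counting error.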
